A study of Mus musculus with 18 samples.

Results

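The translation initiation factor genes were followed in mouse liver after sham operation and at 8 times after 2/3 partial hepatectomy. A row of the 18 count tables was taken as a member if its symbol began with Eif and a number from 1 to 6. The 4 eIF2 kinases (Eif2ak1 to Eif2ak4), the Y-linked Eif2s3y, any pseudogene and genes with under 30 reads summed over the 16 complete tables were left out. Of 54 such rows this left 48 members, out of 17180 genes listed in any table, and Eif4g3 with 9 reads was the row dropped for low reads. The rule uses no measured value beyond that minimum, but it was set with earlier results of these data known. The libraries were poly(A) RNA-seq of frozen liver from C57BL/6 mice, and each one pooled RNA of 3 mice. There were 9 groups of 2 pools each: sham operation, which serves as the control, and 2/3 partial hepatectomy with liver taken at 0.5, 2, 4, 24, 48, 72, 120 or 168 h. The labels give no sex or age, and they call the sham group a control without a time of collection, so that resection and time of day cannot be told apart in a comparison with sham. Spread between pools of mice, and not between single mice, sets the p-values.

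Initiation is the step at which a ribosome is brought to the start codon of an mRNA. The factor eIF2 carries the initiator tRNA to the small ribosomal subunit, eIF1, eIF1A, eIF5 and eIF3 attend scanning and start codon choice, and the cap-binding complex eIF4F brings in the mRNA and unwinds it. Regenerating liver raises its protein synthesis as hepatocytes grow and divide, and the pathway is controlled through phosphorylation of eIF2 and through mTORC1, which releases the cap-binding protein from its inhibitors; neither protein level nor phosphorylation was measured here.

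Promoter sequences are shown for 3 members of the cap-binding complex. Eif4a1 and Eif4a2 encode helicases that are close copies of each other, and they differed from sham in opposite directions at 24 h and 48 h. Eif4g1 encodes the scaffold, and its promoter holds the searched motif close to the start. The lines give the 250 bases before the transcription start in RefSeq (build GRCm38.p6, the same assembly as the authors' mm10), 5′ to 3′ on the strand of the gene, and capitals mark the E-box CACGTG, a sequence that MYC and USF proteins are known to bind.
Eif4a1: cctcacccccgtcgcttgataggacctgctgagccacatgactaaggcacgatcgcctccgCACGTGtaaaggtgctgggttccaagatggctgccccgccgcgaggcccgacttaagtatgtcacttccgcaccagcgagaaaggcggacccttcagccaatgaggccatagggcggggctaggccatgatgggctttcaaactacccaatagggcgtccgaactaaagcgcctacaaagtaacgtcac
Eif4a2: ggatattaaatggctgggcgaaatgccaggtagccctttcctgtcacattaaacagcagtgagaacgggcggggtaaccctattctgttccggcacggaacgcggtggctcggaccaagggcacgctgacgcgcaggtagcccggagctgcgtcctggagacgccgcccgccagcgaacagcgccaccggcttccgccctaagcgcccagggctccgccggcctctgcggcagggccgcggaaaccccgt
Eif4g1: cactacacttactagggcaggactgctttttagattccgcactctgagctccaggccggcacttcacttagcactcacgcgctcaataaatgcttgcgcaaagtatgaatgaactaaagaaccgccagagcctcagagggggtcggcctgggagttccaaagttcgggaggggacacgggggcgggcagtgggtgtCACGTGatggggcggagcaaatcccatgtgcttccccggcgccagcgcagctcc
The Eif4a1 stretch is chr11:69672424-69672673 on the minus strand, and its E-box begins 189 bases before the start. The Eif4a2 stretch is chr16:23107218-23107467 on the plus strand and does not hold these letters. The Eif4g1 stretch is chr16:20672477-20672726 on the plus strand, with the E-box 54 bases before the start. In windows of 250 bases before to 50 after the start, CACGTG was present for 10 of the 37 members with a window in the table (27.0%), against 8.09% of 27025 genes; the sequence is its own reverse complement, so that both strands are covered. The 27025 genes were not limited to those expressed in these libraries, and no share was taken for expressed genes alone. The 10 members were Eif1b, Eif3a, Eif3f, Eif3k, Eif4a1, Eif4e, Eif4g1, Eif4h, Eif5a and Eif5a2. The motif TGATGNAAN, which resembles sites bound by ATF4 and C/EBP proteins, was found on either strand for 1 of the 37 members (2.70%), against 4.50% of all genes. These are matches of letters and not measurements of binding.

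The listed reads of named genes summed to between 7773826 and 9162269 per library, each mapped uniquely. In 16 tables the listed genes summed to the total, but the table of sham replicate 2 ended at genes with 52 reads and that of 0.5 h replicate 1 at 157 reads, which leaves 1.14% and 4.73% of their reads unlisted. The 40 members listed in both were therefore tested in all 18 libraries, among 4905 genes, and 6 of the other 8 in the 16 complete libraries, among 12180 genes. Eif3j2 with 33 reads and Eif5a2 with 48 reads over the 16 libraries were too low to test. Levels below are CPM, the reads of a gene relative to the library total after scaling by TMM factors, and RPKM, which also divides by gene length and is used to compare genes. Cell type markers were summed in the 16 complete libraries. Hepatocyte markers such as Alb held 6.86% of the scaled reads or more, with the lowest share in 24 h replicate 2, while 5 of 6 lymphocyte markers were at 0 in at least 1 library. Summed neutrophil markers ranged from 4.85 to 122 CPM and were highest in 4 h replicate 1, with Ngp and Camp at 0 in at least 1 library. Summed cholangiocyte markers stood at 158 and 97.4 CPM at 4 h and 39.1 CPM in sham replicate 1, and ranged from 33.9 to 104.5 CPM in the libraries of the other times, with Cftr at 0 in at least 1 library. Summed Kupffer cell and macrophage markers ranged from 380.2 to 1178 CPM, highest in 168 h replicate 2. Summed markers ranged from 221 to 558.1 CPM (stellate cells), 236.2 to 366.3 CPM (sinusoidal endothelium) and 79.8 to 238.4 CPM (erythroid cells). Such sums also varied with time, each on its own course, and their part in the results was not tested. In bulk RNA, more cells of a type and more RNA per cell cannot be told apart.

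Over the series, initiation factor mRNAs were called most often at 48 h, with 26 of 40 members, followed by 11 at 4 h and 9 at 24 h. At 4 h, 11 of the 40 members were higher than in sham and 0 lower, led by Eif1a, Eif6 and Eif4a1, but 3 were higher and 7 lower with library totals alone as the scale. At 24 h, 8 were higher and 1 lower, among them Eif4a1, Eif6 and Eif2d, and 15 were higher and 0 lower with library totals alone. At 48 h, 19 were higher and 7 lower. Most called eIF3 and eIF4F subunits were higher, and the start-codon factors Eif1, Eif1a and Eif5 were lower. With library totals alone the 48 h calls of Eif1 and Eif1a were lost. Eif1ad, Eif1ax and Eif1b, listed in the same role and fitted in the 16 complete libraries, had 48 h values from 0.01 to 0.29. Of these, Eif1ad is named only for holding an eIF1A domain. A change is a log2 fold change with its SE, and a call is a Benjamini-Hochberg adjusted p under 0.05 over all genes tested in edgeR's quasi-likelihood test; the 8 comparisons with sham share the same 2 sham pools.

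**Figure D1:**
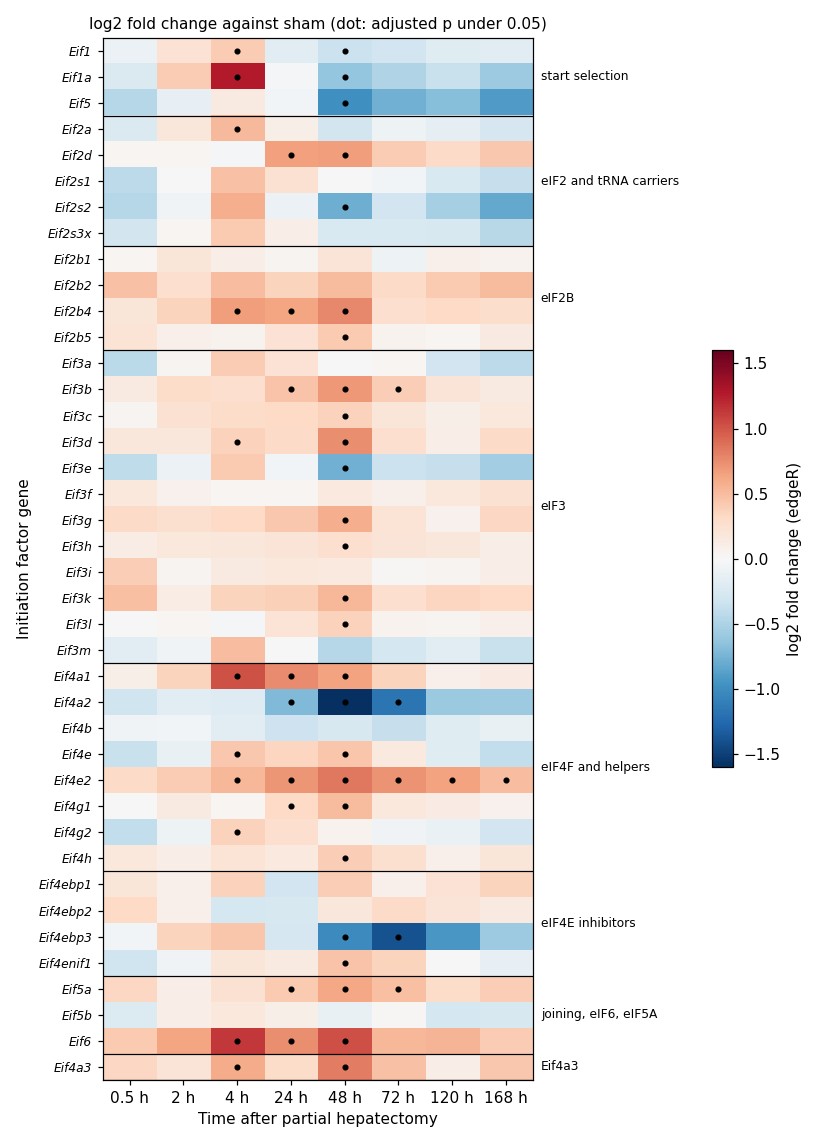
Heat map of log2 fold changes against sham (color) for the 40 members tested in all 18 libraries (rows, ordered by role) at the 8 times (columns); a dot stands for an adjusted p under 0.05. The 11 dots at 4 h are all on increases (under TMM scaling), and the 26 at 48 h are on 19 increases and 7 decreases.

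The shares need the background of all genes. At 4 h the 27.5% of members called compares with 35.6% of all tested genes called (16.9% higher, 18.8% lower), so the number called was not above that of other genes, while their direction was one-sided under TMM scaling. At 24 h the 22.5% of members called, with Eif4a2 as the one that was lower, compares with 17.2% of all genes (7.83% higher, 9.42% lower). At 48 h, 65% of members were called, against 36.8% of all tested genes (17.96% higher, 18.9% lower). Of the 8 tested members with the E-box, 6 were higher and 0 lower at 48 h, with a median log2 fold change of 0.48, and of the 24 tested members with a window but no E-box, 11 were higher and 4 lower, with a median of 0.29; this difference was not tested. At 72 h, Eif3b, Eif4e2 and Eif5a were higher and Eif4a2 and Eif4ebp3 lower, with 12.5% called among members and among all genes (6.12% higher, 6.42% lower). At 120 h and 168 h the one member called was Eif4e2, against 0.775% and 5.75% of all genes. At 0.5 h edgeR called 0 of 40 members and 0.204% of all genes; 9 members had an unadjusted p under 0.05, DESeq2 called 3 and limma 0. At 2 h edgeR called 0 members and 8.77% of all genes, while 6 members had an unadjusted p under 0.05, DESeq2 called 3 and limma 0. The counts by unadjusted p, DESeq2 and limma were not made for all genes. A test of any difference among the 9 groups called 26 of 40 members (65%), against 68.6% of all genes. Of the 26 called at 48 h, this test did not call Eif2b5, Eif3c, Eif3g, Eif3h, Eif3k and Eif4h. It called Eif2a, Eif2s1, Eif2s3x, Eif3m, Eif4ebp2 and Eif4g2, which were not called at 48 h. Of the 28 members called at 1 or more times against sham, 21 were called only as higher and 5 only as lower, while Eif1 and Eif1a were higher at 4 h and lower at 48 h. The median log2 fold change of the 40 members was, in order of time, 0.03, 0.10, 0.36, 0.21, 0.32, 0.08, 0.06 and 0.09, while that of all genes stayed between -0.02 and 0.02.

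These counts rest on 2 pools per group and on the scaling. Without sham replicate 1, sham replicate 2 or 4 h replicate 1 the 4 h count of 11 became 5, 7 or 6. The 24 h count of 9 became 2 or 4 when sham replicate 1 or 2 was left out, and 3 on leaving out replicate 2 of 24 h. The 48 h count of 26 became 14 without sham replicate 1 and 12 or 17 on leaving out replicate 1 or 2 of 48 h, and the 72 h count of 5 became 3 without sham replicate 1, 1 on leaving out replicate 2 of 72 h and 8 on leaving out either pool of 2 h. The Eif4e2 call at 120 h was lost without either pool of sham, 48 h, 72 h, 120 h or 168 h, and that at 168 h without any of the same pools. With library totals alone in place of TMM factors, the median of all genes against sham moved to -0.17 for 2 h and -0.37 for 4 h. It moved to 0.11 for 24 h and 0.15 for 48 h, and calls among all genes were not counted on that scale. Under that scaling 3 members were called higher and 7 lower at 4 h, and of the 11 calls Eif1a, Eif4a1 and Eif6 held, while Eif3d and Eif4g2 changed sign; the members' median at 4 h became -0.02. At 48 h, 23 of the 26 calls held and none changed sign; Eif1, Eif1a and Eif2s2 were lost. With no filter, and likewise in the 16 complete libraries, 12 of the 28 members lost the call at their largest called change against sham. In both fits these were Eif1, Eif2a and Eif4g2 at 4 h and Eif2b5, Eif2s2, Eif3c, Eif3h, Eif3l, Eif4e, Eif4enif1 and Eif4h at 48 h, with Eif3g lost in the first and Eif4g1 in the second. Of the 28 members, 11 kept that call under every alternative and every left-out library: Eif1a, Eif2b4, Eif2d, Eif3b, Eif3d, Eif4a1, Eif4a2, Eif4a3, Eif4e2, Eif5a and Eif6.

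**Figure D2:**
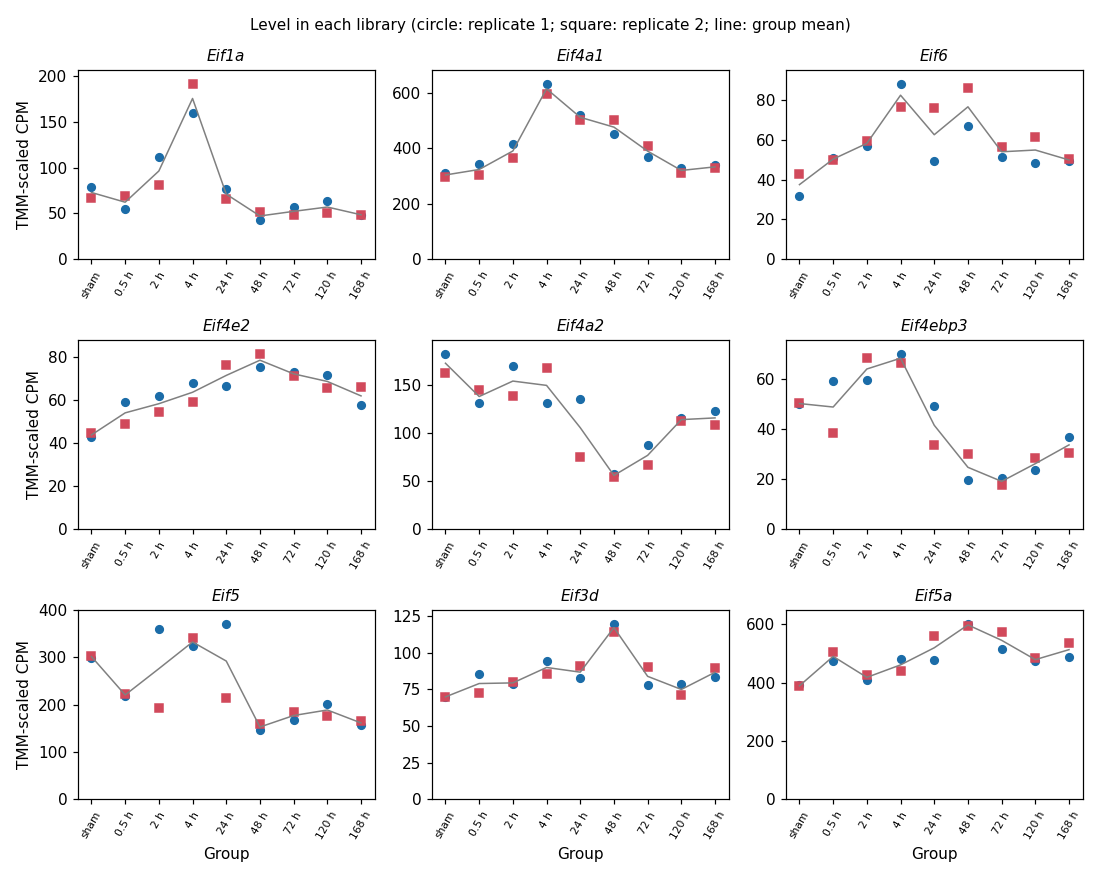
Scaled CPM (vertical axis, from 0) of 9 members in the 2 pools of each of the 9 groups (horizontal axis); each point is 1 library and the line joins the group means. Eif1a, Eif4a1 and Eif6 have their highest group mean at 4 h, whereas Eif4a2 and Eif5 are lowest at 48 h.

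Among the factors of scanning and start codon choice, Eif1 and Eif1a were higher than sham at 4 h, and all 3 members tested in 18 libraries were lower at 48 h. Eif1a encodes a form of eIF1A, which binds the small subunit with eIF1 and opens it for scanning. Eif1a stood at 78.9 and 66.9 in sham, 55.4 and 69.2 at 0.5 h, 112 and 80.8 at 2 h and 159 and 192 at 4 h CPM. From 24 h, Eif1a stood at 76.4 and 65.8 at 24 h, 43.3 and 51.3 at 48 h, 56.8 and 47.8 at 72 h, 63.7 and 50.4 at 120 h and 48.3 and 48.8 at 168 h CPM. The 4 h pools lay above all other libraries, and both 48 h pools lay below both sham pools. Eif1a rose by 1.27 ± 0.19 (adjusted p = 0.000186) at 4 h and fell by 0.62 ± 0.19 (adjusted p = 0.02) at 48 h on the log2 scale; with library totals alone the 48 h fall was not called. Eif1, the gate-keeper of start codon choice, had the highest level per length of this role, with a mean of 200.4 RPKM over the complete libraries. Eif1 stood at 271 and 248 in sham, 229.9 and 256 at 0.5 h, 313 and 298 at 2 h and 369 and 318 at 4 h CPM. From 24 h, Eif1 stood at 231 and 232 at 24 h, 192 and 218 at 48 h, 221 and 197 at 72 h, 225 and 229 at 120 h and 239 and 224 at 168 h CPM. Again both 4 h pools were the highest of the series, but the 72 h pools overlapped those of 48 h. Eif1 rose by 0.40 ± 0.11 (adjusted p = 0.014) at 4 h, a call lost without sham replicate 2 or 4 h replicate 1 and, at 0.02, with library totals alone. It fell by 0.34 ± 0.11 (adjusted p = 0.0331) at 48 h. Eif5 encodes the protein that makes eIF2 hydrolyse its GTP at the start codon. Eif5 stood at 299 and 304 in sham, 218 and 223 at 0.5 h, 359.6 and 193 at 2 h and 324 and 342 at 4 h CPM. From 24 h, Eif5 stood at 371 and 214 at 24 h, 147 and 159 at 48 h, 169 and 186 at 72 h, 202 and 176 at 120 h and 157 and 166 at 168 h CPM. The 4 pools of 48 h and 168 h were the lowest, and the pools of 2 h and of 24 h stood far apart from each other. Eif5 fell by 0.98 ± 0.25 (adjusted p = 0.00946) at 48 h, a call lost without 48 h replicate 1 (adjusted p = 0.0588). The 3 scarce members of this role, Eif1ad, Eif1ax and Eif1b, were called against sham at 0 times in the 16 complete libraries.

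The eIF2 subunits, encoded by Eif2s1 (alpha), Eif2s2 (beta) and Eif2s3x (gamma), had their highest group means at 4 h, and of these 3 only Eif2s2 was called against sham. Eif2s3x encodes the subunit that binds GTP and the initiator tRNA, and at 31.5 RPKM it was the highest of the tRNA carriers per length. Eif2s3x stood at 129.6 and 108 in sham, 95.7 and 99.2 at 0.5 h, 137 and 108 at 2 h and 146 and 172 at 4 h CPM. From 24 h, Eif2s3x stood at 148 and 109 at 24 h, 102 and 99.1 at 48 h, 98.8 and 102 at 72 h, 105 and 93.97 at 120 h and 94.1 and 80.6 at 168 h CPM. The groups overlapped, since 24 h replicate 1 was above 4 h replicate 1, and none of its differences from sham was called; the change at 4 h was 0.42 ± 0.16 (adjusted p = 0.0583). Eif2s2 stood at 82.3 and 79.1 in sham, 58.4 and 59.7 at 0.5 h, 106 and 49.8 at 2 h and 110.3 and 130.5 at 4 h CPM. From 24 h, Eif2s2 stood at 94.2 and 56.6 at 24 h, 48.01 and 46.1 at 48 h, 62.4 and 68.2 at 72 h, 61.4 and 50.6 at 120 h and 44.7 and 46.4 at 168 h CPM. Both 4 h pools were above all others, and both 48 h pools were below both sham pools, although 168 h replicate 1 was lower still. Eif2s2 fell by 0.78 ± 0.28 (adjusted p = 0.0427) at 48 h. That call did not hold without any one of 9 libraries (both pools of sham, of 0.5 h, of 48 h and of 168 h, and replicate 1 of 72 h) nor under 4 of the other alternatives, with values from -0.83 to -0.60. The other carriers act without eIF2: eIF2A can bring tRNA to the ribosome on some mRNAs, and eIF2D acts in ribosome recycling and reinitiation. Eif2a rose by 0.52 ± 0.16 (adjusted p = 0.0196) at 4 h, a call lost without sham replicate 1 or 4 h replicate 2, and with library totals alone (0.15). Eif2d stood at 31.5 and 35.7 in sham, 35.1 and 33.7 at 0.5 h, 32.7 and 36.1 at 2 h and 35.4 and 30.97 at 4 h CPM. From 24 h, Eif2d stood at 47.5 and 58.9 at 24 h, 53.1 and 53.9 at 48 h, 39.2 and 49.7 at 72 h, 39.9 and 43.6 at 120 h and 42.96 and 47.5 at 168 h CPM. The 8 libraries up to 4 h and the 10 from 24 h on did not overlap. Eif2d rose by 0.66 ± 0.14 (adjusted p = 0.00773) at 24 h and 0.67 ± 0.14 (adjusted p = 0.00356) at 48 h. The exons of Eif2d overlap those of Rassf5 on the opposite strand by 78 bases and those of Eif2a overlap Serp1 by 72 bases, and the strand of counting is not given.

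The eIF2B complex, which recharges eIF2 with GTP and is the target of phosphorylated eIF2, had 2 of 4 tested subunits higher at 48 h and 0 lower. Eif2b4 encodes its delta subunit and at 23.1 RPKM was the highest of the complex. Eif2b4 stood at 35.01 and 37.5 in sham, 47.5 and 35.6 at 0.5 h, 42.6 and 50.1 at 2 h and 63.1 and 52.3 at 4 h CPM. From 24 h, Eif2b4 stood at 57.1 and 54.95 at 24 h, 59.9 and 63.4 at 48 h, 45.3 and 41.7 at 72 h, 45.6 and 44.9 at 120 h and 39.01 and 49.4 at 168 h CPM. The 6 pools of 4 h, 24 h and 48 h lay above all others. Eif2b4 rose by 0.67 ± 0.16 (adjusted p = 0.00496) at 4 h, 0.63 ± 0.16 (adjusted p = 0.0148) at 24 h and 0.77 ± 0.16 (adjusted p = 0.00265) at 48 h. Its exons overlap those of Snx17 by 204 bases on the opposite strand. Eif2b5, the catalytic subunit, rose by 0.42 ± 0.13 (adjusted p = 0.0223) at 48 h, a call lost without sham replicate 1 or either 48 h pool. Eif2b1 and Eif2b2 had 48 h values of 0.21 ± 0.13 and 0.51 ± 0.21, and neither was called against sham at any time.

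Of the 12 eIF3 subunits tested in 18 libraries, 7 rose and 1 fell at 48 h. At 4 h and at 24 h 1 rose in each (Eif3d and Eif3b). The test of any difference among the 9 groups called 5 of the 12 (Eif3b, Eif3d, Eif3e, Eif3l and Eif3m). The complex holds the small subunit open and links it to eIF4F. Mean levels per length ran from 30.5 RPKM (Eif3e) to 114 RPKM (Eif3h) among these 12, whereas the paralogs Eif3j1 and Eif3j2 stood at 2.39 and 0.10 RPKM. Only uniquely mapped reads were counted, so reads that fit both paralogs would be missing, and their levels may be too low. Eif3h encodes a noncatalytic subunit and was the most abundant. Eif3h stood at 120.4 and 133 in sham, 146 and 130.3 at 0.5 h, 142 and 142 at 2 h and 141 and 146 at 4 h CPM. From 24 h, Eif3h stood at 142 and 149 at 24 h, 153 and 152 at 48 h, 144 and 147 at 72 h, 146 and 142 at 120 h and 132 and 141 at 168 h CPM. The 2 pools of 48 h were the highest, by a small margin over 24 h replicate 2. Eif3h rose by 0.27 ± 0.10 (adjusted p = 0.0428) at 48 h, and 11 of the 18 fits that left out 1 library did not call it, among them those without either pool of sham, 48 h, 4 h, 120 h or 168 h or without 24 h replicate 1 (0.20 to 0.34). It was not called with no filter (adjusted p = 0.226) or in the 16 complete libraries (adjusted p = 0.151) either. Eif3b encodes the scaffold of the complex. Eif3b stood at 143 and 129 in sham, 167 and 135 at 0.5 h, 169 and 163 at 2 h and 159 and 169.5 at 4 h CPM. From 24 h, Eif3b stood at 184 and 191 at 24 h, 203 and 237 at 48 h, 180.0 and 179 at 72 h, 164 and 149 at 120 h and 148 and 152 at 168 h CPM. The 48 h pools were the highest of the series and the 24 h pools next. Eif3b rose by 0.46 ± 0.12 (adjusted p = 0.0174) at 24 h, 0.69 ± 0.12 (adjusted p = 0.000949) at 48 h and 0.40 ± 0.12 (adjusted p = 0.0418) at 72 h.

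Eif3d encodes a subunit that can itself bind the cap on some mRNAs. Eif3d stood at 69.7 and 70.2 in sham, 85.5 and 72.5 at 0.5 h, 78.5 and 80.4 at 2 h and 94.6 and 85.3 at 4 h CPM. From 24 h, Eif3d stood at 82.7 and 90.9 at 24 h, 119.8 and 114 at 48 h, 77.7 and 90.2 at 72 h, 78.7 and 71.2 at 120 h and 83.7 and 89.7 at 168 h CPM. Both sham pools were the lowest of the series and both 48 h pools the highest. Eif3d rose by 0.36 ± 0.12 (adjusted p = 0.0298) at 4 h and 0.74 ± 0.12 (adjusted p = 0.000599) at 48 h, but at 4 h its sign turned with library totals alone. Its exons overlap those of Gm17638, an antisense gene on the opposite strand, by 2151 bases, the longest such overlap of any member. Eif3g encodes an RNA-binding subunit. Eif3g stood at 57.8 and 66.7 in sham, 93.3 and 60.4 at 0.5 h, 72.1 and 76.04 at 2 h and 70.2 and 84.7 at 4 h CPM. From 24 h, Eif3g stood at 82.6 and 85.6 at 24 h, 91.7 and 94.9 at 48 h, 71.7 and 73.2 at 72 h, 70.8 and 59.3 at 120 h and 77.9 and 79.01 at 168 h CPM. The 48 h pools were above both sham pools, and 0.5 h replicate 1 lay between the 48 h values. Eif3g rose by 0.58 ± 0.17 (adjusted p = 0.0172) at 48 h, a call lost without sham replicate 1 or either 48 h pool (0.49 to 0.59). Eif3e was the one subunit that fell. Eif3e stood at 57.4 and 51.4 in sham, 37.4 and 44.99 at 0.5 h, 64.6 and 37.5 at 2 h and 64.4 and 81.5 at 4 h CPM. From 24 h, Eif3e stood at 60.4 and 45.3 at 24 h, 33.6 and 29.98 at 48 h, 41.9 and 43.9 at 72 h, 43.9 and 40.2 at 120 h and 39.6 and 34.2 at 168 h CPM. The 48 h pools were the lowest of the series. Eif3e fell by 0.77 ± 0.22 (adjusted p = 0.0153) at 48 h, a call lost without sham replicate 1 (-0.69) or 48 h replicate 2 (-0.68). Smaller increases at 48 h were called for Eif3k (0.53 ± 0.14), Eif3l (0.37 ± 0.10) and Eif3c (0.37 ± 0.12), and each of these calls was lost without 2 or more of the sham and 48 h pools. Eif3a, Eif3f, Eif3i and Eif3m were not called against sham at any time, with 48 h values of -0.01 ± 0.24, 0.16 ± 0.14, 0.16 ± 0.11 and -0.45 ± 0.22.

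Among the genes of the cap-binding complex, its helpers and relatives of its subunits, 5 of 8 tested members rose at 48 h and Eif4a2 fell. The 5 were Eif4a1, Eif4e, Eif4g1, the helper Eif4h and Eif4e2, whose protein does not join the scaffold. Eif4a1 and Eif4a2 encode the RNA helicase eIF4A. Eif4a1 (gene 13681, chr11:69666936-69672423) is the form of growing cells and was the highest of this role at 219 RPKM. Eif4a1 stood at 310.0 and 297 in sham, 344 and 303 at 0.5 h, 415 and 365 at 2 h and 632 and 595 at 4 h CPM. From 24 h, Eif4a1 stood at 520.2 and 502 at 24 h, 451 and 501 at 48 h, 369.5 and 409 at 72 h, 329.5 and 310.4 at 120 h and 338 and 327 at 168 h CPM. The 4 h pools were the highest, the 24 h and 48 h pools came next, and these 6 lay above all other libraries. Eif4a1 rose by 1.02 ± 0.11 (adjusted p = 2.2e-05) at 4 h, 0.75 ± 0.11 (adjusted p = 0.00109) at 24 h and 0.65 ± 0.11 (adjusted p = 0.00106) at 48 h. Eif4a2 (gene 13682, chr16:23107468-23114132) is the form typical of resting tissue. Eif4a2 stood at 183 and 163 in sham, 132 and 145 at 0.5 h, 170.1 and 139 at 2 h and 132 and 169 at 4 h CPM. From 24 h, Eif4a2 stood at 136 and 75.6 at 24 h, 57.9 and 54.5 at 48 h, 87.6 and 66.7 at 72 h, 116 and 113 at 120 h and 123 and 109 at 168 h CPM. The 48 h pools were the lowest of the series and the sham pools had the highest group mean, while the 24 h pools differed widely. Eif4a2 fell, with log2 fold changes of -0.71 ± 0.22 (adjusted p = 0.0435) at 24 h, -1.62 ± 0.23 (adjusted p = 0.000315) at 48 h and -1.17 ± 0.23 (adjusted p = 0.00571) for 72 h, the 24 h call being lost with library totals alone. Against 48 h, the 168 h pools were higher by 1.05 ± 0.23 (adjusted p = 0.00622). Exons of Eif4a2 overlap those of Rfc4, a replication factor gene, by 194 bases on the opposite strand, as well as several small nucleolar RNA genes, and how reads there were assigned is not given.

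Within a library, the ratio of Eif4a1 to Eif4a2 needs no scaling between libraries. It was 2.83 and 3.04 in sham, 4.36 and 3.49 at 0.5 h, 4.08 and 4.39 at 2 h and 8.04 and 5.91 at 4 h on RPKM values. From 24 h the ratio was 6.38 and 11.1 at 24 h, 13.02 and 15.4 at 48 h, 7.05 and 10.3 at 72 h, 4.74 and 4.61 at 120 h and 4.59 and 5.02 at 168 h. The group mean went from 2.94 in sham to 6.98 at 4 h and 14.2 at 48 h, and was 4.80 at 168 h; the sham pools were the lowest and the 48 h pools the highest of the series.

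**Figure D3:**
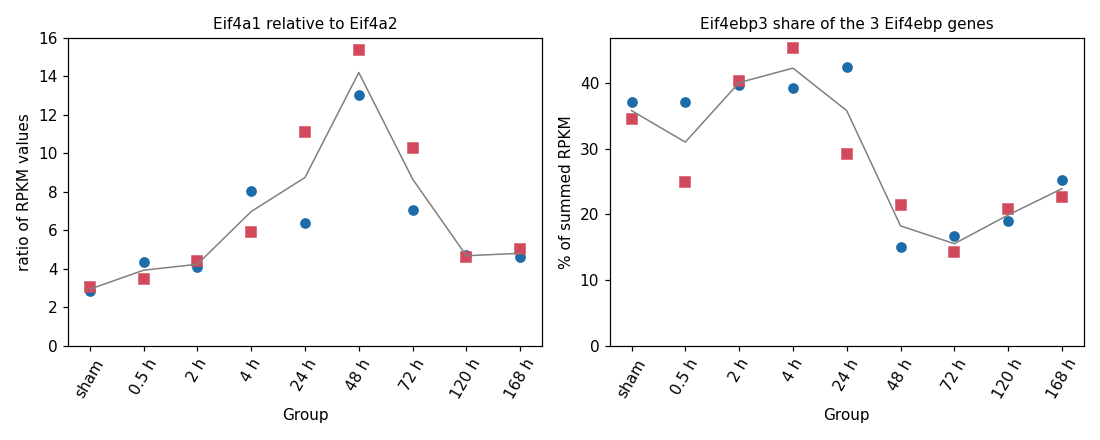
Left, ratio of Eif4a1 to Eif4a2 RPKM; right, Eif4ebp3 as a percentage of the summed RPKM of the 3 Eif4ebp genes, each in the 2 pools (points) of the 9 groups, with lines through the group means. The ratio peaks at 48 h with a mean of 14.2, and the Eif4ebp3 share is lowest at 72 h with a mean of 15.5%.

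Eif4e2 encodes 4EHP, which binds the cap without joining the scaffold and represses translation. Eif4e2 stood at 42.8 and 44.7 in sham, 58.9 and 49.01 at 0.5 h, 61.95 and 54.5 at 2 h and 67.95 and 59.04 at 4 h CPM. From 24 h, Eif4e2 stood at 66.3 and 76.3 at 24 h, 75.4 and 81.3 at 48 h, 72.99 and 71.1 at 72 h, 71.5 and 65.5 at 120 h and 57.6 and 66.01 at 168 h CPM. Every pool after resection was above both sham pools. Eif4e2 rose by 0.54 ± 0.13 (adjusted p = 0.00672) at 4 h, 0.70 ± 0.13 (adjusted p = 0.00345) at 24 h, 0.84 ± 0.13 (adjusted p = 0.000549) at 48 h, 0.72 ± 0.13 (adjusted p = 0.00428) at 72 h, 0.65 ± 0.13 (adjusted p = 0.0394) at 120 h and 0.50 ± 0.13 (adjusted p = 0.046) at 168 h. Eif4e, the cap-binding protein of eIF4F, rose by 0.43 ± 0.13 (adjusted p = 0.0233) at 4 h and 0.44 ± 0.13 (adjusted p = 0.0199) at 48 h and had a log2 fold change of -0.84 ± 0.13 (adjusted p = 0.00114) from 48 h to 168 h. Its 48 h call was lost without any one of the sham and 48 h pools, with values from 0.39 to 0.48. Eif4g1 rose by 0.32 ± 0.10 (adjusted p = 0.0487) at 24 h and 0.51 ± 0.10 (adjusted p = 0.00265) at 48 h. Eif4g2 encodes a scaffold that lacks the binding site for the cap-binding protein; it rose by 0.37 ± 0.13 (adjusted p = 0.0435) at 4 h, a call that leaving out any one of 10 pools (both of sham, of 0.5 h, of 4 h, of 120 h and of 168 h) ended, and its sign turned with library totals alone (-0.01). Eif4h, a helper of the helicase, rose by 0.39 ± 0.11 (adjusted p = 0.0163) at 48 h, a call lost without either sham pool or 48 h replicate 1. Eif4b, the other helper, was not called against sham at any time, with -0.25 ± 0.12 at 48 h.

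The inhibitors of the cap-binding protein did not move together. Eif4ebp1, Eif4ebp2 and Eif4ebp3 encode small proteins that hold eIF4E until mTORC1 phosphorylates them. Per length Eif4ebp2 was the highest, at 44.0 RPKM. Eif4ebp2 stood at 68.9 and 77.2 in sham, 83.1 and 98.7 at 0.5 h, 66.3 and 88.8 at 2 h and 67.5 and 52.6 at 4 h CPM. From 24 h, Eif4ebp2 stood at 59.6 and 63.2 at 24 h, 85.5 and 80.5 at 48 h, 83.7 and 97.1 at 72 h, 81.02 and 88.00 at 120 h and 85.8 and 75.1 at 168 h CPM. Its 4 h and 24 h pools lay below those of sham, 0.5 h and 48 h to 168 h, and only 2 h replicate 1 overlapped them. No time differed from sham at the threshold, and the 48 h value was 0.18 ± 0.16 (adjusted p = 0.382). The test of any difference among the 9 groups called Eif4ebp2. Eif4ebp3 stood at 50.02 and 50.1 in sham, 59.1 and 38.2 at 0.5 h, 59.3 and 68.3 at 2 h and 69.9 and 66.3 at 4 h CPM. From 24 h, Eif4ebp3 stood at 49.1 and 33.8 at 24 h, 19.5 and 29.9 at 48 h, 20.6 and 17.6 at 72 h, 23.7 and 28.6 at 120 h and 36.9 and 30.3 at 168 h CPM. The 8 pools from 48 h on lay below both sham pools. Eif4ebp3 fell, with log2 fold changes of -1.02 ± 0.24 (adjusted p = 0.00576) at 48 h and -1.39 ± 0.24 (adjusted p = 0.00347) at 72 h, where without 72 h replicate 2 the change was -1.27 with an adjusted p of 0.0596. As a share of the summed RPKM of the 3 genes, Eif4ebp3 had a group mean of 35.8% in sham and 42.2% at 4 h, then of 18.2% at 48 h and 15.5% at 72 h, and finally of 23.9% at 168 h, while the sum of the 3 lay between 101 and 139.8 RPKM in every library. Exons of Eif4ebp3 overlap a same-strand gene, AC115631.1, by 501 bases, so that the split of reads between them is uncertain. Eif4ebp1 was not called against sham, but fell from 4 h to 24 h, by a log2 fold change of -0.67 ± 0.18 (adjusted p = 0.0111), and rose from 24 h to 48 h by 0.69 ± 0.18 (adjusted p = 0.0216). With library totals alone the first of these was -0.18 (adjusted p = 0.39) and no longer called, while 48 h against sham was called at 0.55 (adjusted p = 0.0211). Eif4enif1, which carries the cap-binding protein into the nucleus, rose by 0.46 ± 0.13 (adjusted p = 0.0172) at 48 h, a call lost without either sham pool or 48 h replicate 1.

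Of the late-acting factors, Eif6 and Eif5a rose and Eif5b was not called. Eif6 encodes a protein that keeps the large subunit from joining and is needed to build it. Eif6 stood at 32.01 and 42.98 in sham, 50.9 and 49.7 at 0.5 h, 56.9 and 59.5 at 2 h and 88.2 and 76.6 at 4 h CPM. From 24 h, Eif6 stood at 49.2 and 75.9 at 24 h, 66.9 and 86.2 at 48 h, 51.6 and 56.4 at 72 h, 48.2 and 61.5 at 120 h and 49.4 and 50.3 at 168 h CPM. The sham pools were the lowest of the series, and the 4 h and 48 h pools overlapped. Eif6 rose by 1.14 ± 0.21 (adjusted p = 0.000858) at 4 h, 0.74 ± 0.20 (adjusted p = 0.0235) at 24 h and 1.03 ± 0.20 (adjusted p = 0.00226) at 48 h. Its exons overlap those of the antisense gene Gm16098 by 138 bases. Eif5a encodes the hypusine-bearing protein that helps ribosomes elongate and terminate, and at 347 RPKM it was the most abundant of all members. Eif5a stood at 391 and 388 in sham, 474 and 506 at 0.5 h, 411 and 426 at 2 h and 481 and 441 at 4 h CPM. From 24 h, Eif5a stood at 478 and 561 at 24 h, 602 and 594 at 48 h, 516 and 574 at 72 h, 475 and 483 at 120 h and 489 and 537 at 168 h CPM. The sham pools were again the lowest, and the 48 h pools the highest. Eif5a rose by 0.42 ± 0.11 (adjusted p = 0.0211) at 24 h, 0.62 ± 0.11 (adjusted p = 0.00131) at 48 h and 0.49 ± 0.11 (adjusted p = 0.0132) at 72 h. Its gene lies 244.3 kb from Eif4a1 on chromosome 11. Eif5b, the subunit-joining GTPase, had -0.12 ± 0.22 at 48 h, and its exons overlap Rev1 by 1643 bases on the opposite strand. Eif4a3 bears the family name but acts in the exon junction complex. Eif4a3 stood at 27.01 and 37.8 in sham, 45.7 and 35.9 at 0.5 h, 36.8 and 37.8 at 2 h and 50.1 and 47.4 at 4 h CPM. From 24 h, Eif4a3 stood at 36.7 and 43.1 at 24 h, 53.5 and 60.7 at 48 h, 42.3 and 47.8 at 72 h, 35.1 and 34.8 at 120 h and 44.9 and 42.6 at 168 h CPM. Both 48 h pools were above all other libraries, while the sham pools differed by 0.49 on the log2 scale. Eif4a3 rose by 0.59 ± 0.16 (adjusted p = 0.0127) at 4 h and 0.82 ± 0.16 (adjusted p = 0.00214) at 48 h.

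A direct comparison of 48 h with 4 h was added after the data had been seen. Sham is not one of the groups compared, though its pools enter the shared fit, its scaling and its spread. It called 8 members higher and 11 lower at 48 h, or 47.5% against 51.7% of all genes (25.3% higher, 26.4% lower). The largest decreases were those of Eif1a (-1.89 ± 0.19), Eif4ebp3 (-1.46 ± 0.24), Eif4a2 (-1.42 ± 0.23), Eif2s2 (-1.36 ± 0.28), Eif3e (-1.20 ± 0.22) and Eif5 (-1.12 ± 0.25). Eif3m, an eIF3 subunit, was also lower, at -0.95 ± 0.22 (adjusted p = 0.00325), as was Eif2s3x at -0.66 ± 0.16 (adjusted p = 0.00431). The largest increases were in Eif2d (0.69 ± 0.15), Eif4g1 (0.48 ± 0.10), Eif4ebp2 (0.47 ± 0.16) and Eif3b (0.42 ± 0.12). With library totals alone the median of all genes in this comparison moved to 0.55, 24 members were higher and 5 lower, 13 of the 19 calls held, and Eif4a1 turned from -0.37 to 0.17.

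**Figure D4:**
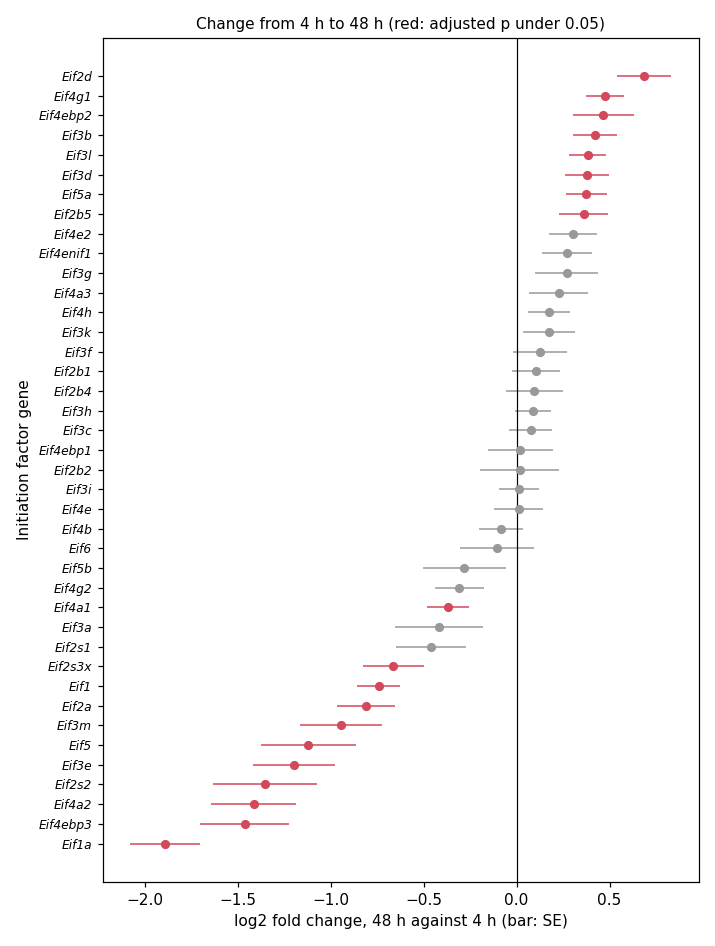
Log2 fold change from 4 h to 48 h (horizontal axis) with its SE (bars) for the 40 members (vertical axis), red where the adjusted p is under 0.05. The 11 red decreases reach -1.89 (Eif1a), and the 8 red increases reach 0.69 (Eif2d).

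Between neighbouring times, 4 members were higher and 0 lower at 4 h than at 2 h (Eif1a, Eif4a1, Eif4e and Eif4g2; 14.7% of all genes called, 5.63% higher and 9.03% lower), a count of 7 or 1 on leaving out replicate 1 or 2 of 2 h and 2 without either 4 h pool. At 24 h against 4 h, Eif2d and Eif4g1 were higher and Eif1, Eif1a, Eif2a, Eif4ebp1 and Eif4ebp3 lower (34.5% of all genes, 17.5% higher and 17.0% lower), and the 7 calls became 4 without either 4 h pool. With library totals alone that comparison gave 22 higher and 1 lower, with the median of all genes at 0.48, and Eif2a turned from -0.42 to 0.07. From 24 h to 48 h, Eif3d, Eif4a3 and Eif4ebp1 were higher and Eif3e, Eif4a2 and Eif5 lower (14.5% of all genes, 7.89% higher and 6.59% lower); the 6 calls became 0 without 24 h replicate 1 or either 48 h pool, and 12 without 24 h replicate 2. At 168 h against 48 h, 8 members were lower (Eif2b4, Eif3b, Eif3d, Eif4a1, Eif4e, Eif4enif1, Eif4g1 and Eif6) and Eif4a2 was higher (20.7% of all genes, 11.4% higher and 9.30% lower). The 9 calls became 2 without replicate 2 of 48 h, and 4 or 5 on leaving out replicate 1 or 2 of 168 h.

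The scarce members were tested in the 16 complete libraries, where sham and 0.5 h have 1 library each that is assumed to vary like the other groups. Unlisted genes have 0 reads in these 16 tables, so the fit that took them as 0 differed only in leaving out the filter on low counts. At the 8 times against sham edgeR called 0 of the 6, with 1 unadjusted p under 0.05 at each of 4 h, 48 h, 120 h and 168 h; DESeq2 and limma on log2 CPM called 0 as well, and the fit that took unlisted genes as 0 called 1 member. Of all genes, this test called 0.0493% at 0.5 h, 2.64% at 2 h and 15.5% at 4 h, then 2.87% at 24 h, 14.9% at 48 h and 3.83% at 72 h, and finally 0.107% at 120 h and 0.0821% at 168 h. Any difference among the groups was called for Eif2b3, the gamma subunit of eIF2B, and for Eif4e3, a cap-binding paralog (42.8% of all genes called). Eif4e3 was at 4.75 CPM in sham replicate 1 and 4.59 in 0.5 h replicate 2, and between 4.11 and 9.04 CPM in the libraries from 2 h to 72 h. It stood at 7.91 and 17.1 at 120 h and 11.4 and 16.1 at 168 h CPM. The pool 120 h replicate 1 lay within the earlier range, and the other 3 late pools above it. At 168 h against 48 h 1 of the 6 was higher (6.93% of all genes), Eif4e3 with 1.15 ± 0.31 (adjusted p = 0.0276); its exons share 373 bases with the same-strand gene Gm20696. At 48 h against 4 h 2 of the 6 were lower (19.5% of all genes), Eif2b3 with -1.01 ± 0.28 (adjusted p = 0.0131) and Eif3j1 with -1.35 ± 0.31 (adjusted p = 0.00463), whose exons overlap Spg11 by 1107 bases on the opposite strand.

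The other genes of the pathway give the setting. In each fit a list's genes are named at the time with most of its calls, the earliest on a tie. At 4 h, 35.6% of all genes tested in 18 libraries were called (16.9% higher, 18.8% lower). With library totals alone the median of all genes at 4 h moved to -0.37, and these lists were not refitted on that scale. Of 7 tested genes of eIF2 control, 2 were higher and 1 lower at 4 h: Atf4, a transcription factor translated when eIF2 is phosphorylated (0.93 ± 0.18), Ppp1r15a, the regulatory subunit of the eIF2 phosphatase (0.72 ± 0.21), and the kinase gene Eif2ak1 (-0.41 ± 0.11). Atf4 stood at 89.2 and 97.1 CPM in sham and at 210.2 and 144 CPM at 4 h. Ppp1r15a was also called at 0.5 h (1.14 ± 0.20), when none of the members was. At 2 h Ppp1r15a was higher and Ppp1r15b lower. At 48 h Gcn1l1 of this list was higher and Dnajc3 lower, and Dnajc3 was also lower at 72 h and 168 h. Of 10 genes of mTORC1 and MNK control, Rps6 was higher (0.42 ± 0.13) and Rptor, the mTORC1 subunit that selects substrates, lower (-0.60 ± 0.12) at 4 h. As many of these 10 were called at 24 h (Rps6 higher, Pdcd4 lower) and at 48 h (Mtor higher, Pdcd4 lower). In the 16 complete libraries Ddit4, which restrains mTORC1, was higher at 4 h (3.26 ± 0.50) and Tsc1 lower (-0.82 ± 0.23). Of 6 partner genes, 4 were higher and 0 lower at 4 h: the helicase gene Ddx3x (1.62 ± 0.28), Denr (0.72 ± 0.22), Paip1 (0.49 ± 0.17) and Pabpc1, the poly(A)-binding protein (0.37 ± 0.12). Ddx3x stood at 173 and 163 CPM in sham and at 437 and 597 CPM at 4 h, with no overlap. At 48 h 0 of these 6 were called, against 36.8% of all genes. In the 16 complete libraries the counts at 4 h were 2 higher and 0 lower of 15 for eIF2 control (Atf4 and Nck1), 1 and 2 of 16 for mTORC1 control (Ddit4, with Rptor and Tsc1 lower) and 2 and 0 of 9 for elongation and termination (Eef1e1 and Etf1). Of 13 partners there, Ddx3x was higher (1.54 ± 0.34) and Paip2b, an inhibitor of the poly(A)-binding protein, was lower (-0.87 ± 0.23), while Denr, Paip1 and Pabpc1 were not called. At 24 h that fit called 0 of the 9 elongation and termination genes. Of 7 elongation and termination genes, Eef1g (0.56 ± 0.11), Eef1b2 (0.48 ± 0.15) and Eef1d (0.40 ± 0.13) were higher and 0 lower at 24 h. Among all genes tested in 18 libraries, 7.83% were higher and 9.42% lower at that time. These lists' medians at 4 h were 0.12 for eIF2 control, 0.02 for mTORC1 control, 0.55 for partners and 0.16 for elongation, beside 0.36 for the 40 members and 0.01 for all genes.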

How the data were processed

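Each deposited table holds 1 library, and per the file headers it gives for each gene the authors' count of uniquely mapped reads and an RPKM value, which matched the count divided by gene length and library total. Per the submitters' processing notes the build was mm10; the sources used here do not name the aligner, the counter or the strand setting. Unlisted genes have 0 reads in the 16 complete tables and are unknown in the other 2. Genes without a name (at most 0.0326% of a library's reads) were dropped.

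Tests on the counts as deposited used edgeR 4.0.16 under R 4.3.3 (TMM, quasi-likelihood F test, 1 fit of 9 groups, Benjamini-Hochberg within a contrast, threshold 0.05): 4905 genes in 18 libraries (9 residual degrees of freedom, biological coefficient of variation 0.139, TMM factors 0.765 to 1.16) and 12180 genes in the 16 complete libraries (7 degrees of freedom, 0.166, 0.776 to 1.18). Genes needed the CPM of 10 reads in 2 libraries and 15 reads in all. As the F test gives no SE, it was taken as the size of the log2 fold change over the square root of F. The CPM values were computed here from the authors' counts, log2 CPM for limma 3.58.1 with a prior count of 2, and log2(RPKM + 1) with a pseudocount of 1. DESeq2 1.42.0 and other scalings, filters and sample sets were alternatives. Scripts were tested on simulated data.

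The members, the lists and the rule for values by library (the 16 members with the largest called change against sham, plus the most abundant of each role) were chosen with earlier results of these data known. The other members called were named after their values were seen. Exon overlaps come from GENCODE M21, and locations and promoters from RefSeq GRCm38.p6, where all 48 members matched.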

Additional observations from a re-analysis of the deposited data

How the results depend on the processing

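Under the alternatives, calls were counted for members and not for all genes, and for scarce members only the 16 complete libraries were used. The counts of called members with DESeq2 against sham were 3 (0.5 h), 3 (2 h) and 17 (4 h). They were 15 for 24 h, 12 for 72 h, 2 for 120 h and 9 for 168 h, with 10 for 48 h against 24 h. Scaling by library totals alone, and limma-trend on log2(RPKM + 1), gave 15 at 24 h and 9 at 72 h, 23 for 24 h against 4 h, 18 for 168 h against 48 h and 29 for 48 h against 4 h, and called any difference in 4 of the 6 scarce members; limma on RPKM called 0 at 168 h, and limma on log2 CPM 2.

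With no filter and unlisted genes as 0, which tests more genes, the counts were 4 for 4 h, 2 for 24 h, 15 for 48 h, 3 for 72 h and 0 for both 120 h and 168 h, then 2 for 4 h against 2 h, 3 for 24 h against 4 h, 0 for 48 h against 24 h, 4 for 168 h against 48 h, 17 for any difference and 1 for scarce members against sham. The 16 complete libraries gave 5 for 4 h, 1 for 24 h, 16 for 48 h, 0 for both 120 h and 168 h, 2 for 4 h against 2 h, 3 for 48 h against 24 h and 5 for 168 h against 48 h. A fit of the compared groups alone gave 2 at 24 h, 0 at 120 h, 11 at 168 h, 1 for 4 h against 2 h, 1 for 24 h against 4 h and 0 for 48 h against 24 h. With the replicate number as a block, the counts were 1 at 2 h and 3 at 168 h, and the other counts stayed within 1.5 times; of the 28 named changes, Eif3h at 48 h lost its call under the block (0.27, adjusted p = 0.051). The numbers do not pair the libraries, since same-numbered deviations correlated between -0.546 and 0.53 over 36 pairs of groups, with 14 over 0.1.

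Leaving out 1 library at a time gave 0 to 0 called members for 0.5 h, 0 to 1 for 2 h, 5 to 14 for 4 h, 2 to 10 for 24 h, 12 to 28 for 48 h, 1 to 8 for 72 h, 0 to 1 for 120 h and 0 to 6 for 168 h. The ranges were 1 to 7 for 4 h against 2 h, 4 to 10 for 24 h against 4 h, 0 to 12 for 48 h against 24 h, 2 to 10 for 168 h against 48 h, 14 to 21 for 48 h against 4 h and 22 to 28 for any difference. For scarce members they were 2 to 3 for any difference and 0 to 1 against sham; without the lone sham library of that fit no value could be had. In 756 refits of the 28 named changes, 657 kept direction and call, 97 kept the direction without the call, and 2 reversed: Eif4g2 at 4 h, -0.01 with library totals alone and -0.01 with limma on log2(RPKM + 1). The causes were not tested. Depth limited Eif3j2 and Eif5a2, which had too few reads for a test, and the 2 tables that end early limited the 8 members they do not list.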

Other observations

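Members differed between the 2 pools of a group most at 24 h, where 8 of 40 differed by over 0.5 on the log2 scale (Eif2b2, Eif2s2, Eif3a, Eif4a2, Eif4ebp1, Eif4ebp3, Eif5 and Eif6), and at 2 h, where 4 did (Eif2s2, Eif3e, Eif3m and Eif5). At 2 h these 4 were higher in replicate 1, with Eif2s2 at 106 and 49.8 CPM and Eif5 at 359.6 and 193 CPM. In sham and at 168 h no member differed by that much. The median absolute log2 difference between pools ran from 0.08 at 168 h to 0.23 at 24 h.

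Of the 40 members, TMM-scaled group means peaked at 48 h for 20 and at 4 h for 15, and were lowest in sham for 18. The same counts were not made for all genes. They also depend on the scaling. With library totals alone the members' median for 48 h against 4 h moved from 0.02 to 0.56. Eif4a1, Eif3a and Eif2s1, with peaks at 4 h, then had values of 0.17, 0.11 and 0.07. Ratios within a library gave 2 more patterns that need no scaling. The ratio of Eif1a to Eif1ax RPKM, the forms of eIF1A, was 1.27 and 1.19 in sham, 1.42 in 0.5 h replicate 2, 1.71 and 1.36 at 2 h and 2.42 and 2.06 at 4 h. It was 0.856 and 0.834 at 24 h, 0.715 and 0.767 at 48 h, 0.742 and 0.58 at 72 h, 0.999 and 0.861 at 120 h and 0.735 and 0.805 at 168 h. The ratio of Eif4e2 to Eif4e RPKM was 0.65 and 0.684 in sham, 1.19 and 0.932 at 0.5 h, 0.917 and 1.03 at 2 h and 0.742 and 0.691 at 4 h. It was 0.748 and 0.972 at 24 h, 0.828 and 0.932 at 48 h, 1.01 and 0.966 at 72 h, 1.11 and 1.29 at 120 h and 1.17 and 1.31 at 168 h. These ratios were not tested, and reads that fit both genes of a pair would be missing from counts of uniquely mapped reads.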
